A study of Homo sapiens with 2 samples.

Results

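Long noncoding RNAs (lncRNAs) that lie beside developmental transcription factor genes were measured in liver progenitors made from human embryonic stem cells. The 6 lncRNAs were LINC00261, GATA6-AS1, HNF4A-AS1, GATA2-AS1, GATA3-AS1 and FENDRR, chosen by name and found through their Ensembl gene identifiers among 57158 genes of the deposited table. All 6 had a value in both libraries. Each was set beside its neighbouring factor gene, which was FOXA2, GATA6, HNF4A, GATA2, GATA3 and FOXF1 in the same order. The samples were 2 libraries, titled as replicates, of 1 group: CyT49 embryonic stem cells taken to definitive endoderm by day 2 and cultured in suspension until day 8, over 6 days, in medium holding 50 ng/ml BMP4, 10 ng/ml FGF2 and 0.2% FBS. No untreated, earlier or later sample was analysed here, so every result is a level within this group and no change with time or treatment was measured. The libraries differed by 1.09 times the variance that read counting alone gives (1229 single-exon genes with a mean of 50 reads or more) and were counted as 1 sample. Nothing in the labels says whether they came from separate cultures, and CyT49 is a single cell line.

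A lncRNA is a transcript with no known protein product, and many start close to the promoter of a coding gene, often on the other DNA strand. Near developmental regulators such transcripts are commonly present in the same tissues as the regulator. LINC00261, also called DEANR1, is known for its place beside FOXA2 and for its part in endoderm differentiation of human stem cells. FENDRR, beside FOXF1, is known from lateral mesoderm, the source of heart and body wall. FOXA2, GATA6 and HNF4A are factors of endoderm and liver, while GATA2 and GATA3 are better known from blood and trophoblast, and FOXF1 from mesenchyme. The members therefore sit beside factors of several lineages and not of endoderm alone.

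To show what the starts of these genes look like, the promoter windows of 4 members are given: the most abundant lncRNA, those beside HNF4A and GATA6, and FENDRR as an example at the floor. Sequences are from RefSeq (GRCh38.p14 table), from 250 bases before to 50 bases after the annotated start, and each was placed on GRCh37 (hg19) by an exact match. Capitals mark 3 short motifs, searched on both strands: GTAAACA, recognised by forkhead (FOX) factors, AGATAA, by GATA factors, and CAAAGTCC, by HNF4. The letters were chosen after the windows had been read.
LINC00261: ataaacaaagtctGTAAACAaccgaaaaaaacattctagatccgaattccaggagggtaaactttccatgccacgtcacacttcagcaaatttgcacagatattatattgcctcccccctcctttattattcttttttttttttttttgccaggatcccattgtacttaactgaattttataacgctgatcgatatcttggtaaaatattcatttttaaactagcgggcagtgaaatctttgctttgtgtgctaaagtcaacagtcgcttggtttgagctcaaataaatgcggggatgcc
HNF4A-AS1: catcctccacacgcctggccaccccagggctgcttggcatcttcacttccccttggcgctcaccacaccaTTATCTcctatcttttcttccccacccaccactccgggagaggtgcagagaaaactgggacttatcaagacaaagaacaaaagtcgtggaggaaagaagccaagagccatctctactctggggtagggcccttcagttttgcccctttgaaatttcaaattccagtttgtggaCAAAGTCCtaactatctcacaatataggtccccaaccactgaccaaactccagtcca
GATA6-AS1: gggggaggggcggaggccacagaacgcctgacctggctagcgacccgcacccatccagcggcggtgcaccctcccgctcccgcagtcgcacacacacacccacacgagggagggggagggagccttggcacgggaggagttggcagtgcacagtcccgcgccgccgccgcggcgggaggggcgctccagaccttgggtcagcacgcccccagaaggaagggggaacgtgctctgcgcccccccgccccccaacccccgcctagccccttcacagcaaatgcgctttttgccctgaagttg
FENDRR: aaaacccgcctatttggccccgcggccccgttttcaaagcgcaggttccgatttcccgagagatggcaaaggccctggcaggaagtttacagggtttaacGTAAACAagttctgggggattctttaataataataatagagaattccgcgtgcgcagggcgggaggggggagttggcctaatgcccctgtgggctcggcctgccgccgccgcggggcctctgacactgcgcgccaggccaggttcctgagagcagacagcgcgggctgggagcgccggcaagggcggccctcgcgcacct

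The LINC00261 window (chr20:22559231-22559530, minus strand) held GTAAACA at positions -237 to -231, with the start base counted as 0. The HNF4A-AS1 window (chr20:43024297-43024596, minus strand) held CAAAGTCC at -7 to 0 and AGATAA on the other strand at -180 to -175. The FENDRR window (chr16:86542417-86542716, minus strand) held GTAAACA at -150 to -144. In the GATA6-AS1 window (chr18:19748880-19749179, minus strand) none of the 3 motifs was found, nor was any in the windows of GATA2-AS1 and GATA3-AS1. Of 35116 RefSeq windows of this length, 3.42% held GTAAACA, 10.3% AGATAA and 1.2% CAAAGTCC on either strand. A match is a run of letters and not a measured binding site. GC content was 37% at LINC00261 and 50.7% at HNF4A-AS1. It was 62.3% at FENDRR, 68.3% at GATA2-AS1, 71.3% at GATA6-AS1 and 76.3% at GATA3-AS1, beside a median of 58.7% over all windows. The RefSeq start of GATA6-AS1 lies 910 bp from the gene start in the annotation used here and that of FENDRR 239 bp, so these windows belong to RefSeq's own start.

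Expression is given as RPKM, a read count corrected for the length of the gene and the depth of the library, which allows levels of genes of different length to be set side by side. Every value under 0.5 RPKM is listed as 0.1 in the table and is called the floor here. A gene counts as detected where each library had at least 1 RPKM. Normalization rested on about 25182532 reads in library 1 and 25264652 in library 2. The labelled cell type was checked against 14 hepatoblast markers, all detected, from APOA1 at 2188 RPKM, with AFP at 706, down to ALB, the albumin gene, at 6.68. The list holds HNF4A, which is also among the factors described here. Detection was common among coding genes, since GATA2 at a mean of 3.33 RPKM ranked 8593 of 19345.

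Of the 6 lncRNAs, 4 were detected, beside 5.43% of all 12046 lncRNA genes. The members were chosen with earlier results of these data known, so this contrast is a description and not a test. LINC00261 stood at 115 RPKM in library 1 and 116 in library 2. GATA6-AS1 stood at 10.5 and 10.1 RPKM, GATA2-AS1 at 2.31 and 2.16, and HNF4A-AS1 at 1.47 and 1.71. For GATA3-AS1 and FENDRR each library lay at the floor. The members thus fell into a single abundant transcript, a moderate one, a pair of low ones and a pair below the limit, and neither library changed that order. The median of the 654 detected lncRNA genes was 2.52 RPKM. By mean level LINC00261 ranked 6 and GATA6-AS1 57 of the 12046, GATA2-AS1 365 and HNF4A-AS1 484. Genes above LINC00261 included MALAT1 at 284 and H19 at 243 RPKM. In this bulk RNA, fewer cells with a transcript and less of it per cell cannot be told apart.

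**Figure D1:**
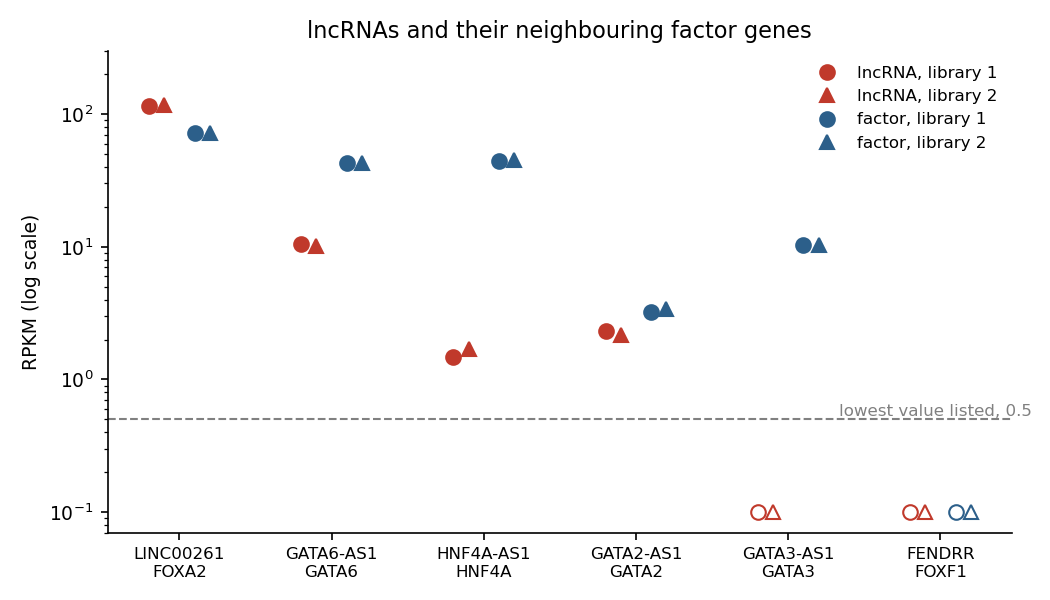
RPKM (log axis) of each lncRNA (red) and its neighbouring factor gene (blue) in library 1 (circles) and library 2 (triangles); open symbols are values listed as 0.1, which means under 0.5 RPKM (dashed line). LINC00261 lies above FOXA2, the other detected lncRNAs lie below their factor, and FENDRR and FOXF1 are both at the floor.

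**Figure D2:**
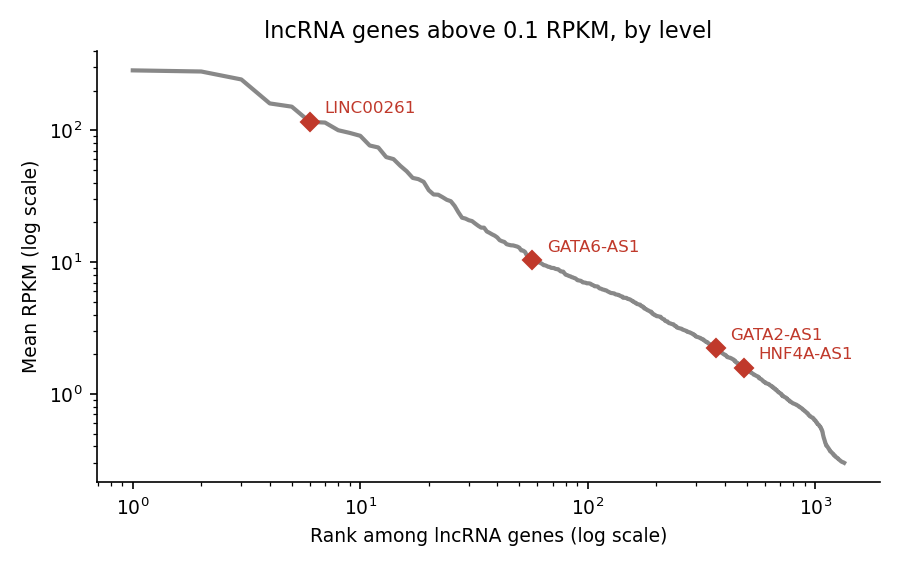
Mean RPKM (log axis) of lncRNA genes above 0.1 RPKM against their rank among 12046 lncRNA genes (log axis), with the 4 detected members as red diamonds. LINC00261 is at rank 6 and HNF4A-AS1 at rank 484.

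LINC00261 was more abundant than the factor gene beside it. FOXA2, a pioneer factor that opens chromatin for endoderm and liver genes, stood at 72.1 RPKM in both libraries. The lncRNA was 1.61 times as high per length, 1.60 in library 1 and 1.61 in library 2. The libraries were nearly equal for each gene and did not overlap between the genes. The interval from read counting alone was 1.57 to 1.64 (exact Clopper-Pearson, 95%). LINC00261 (ENSG00000259974.1) spans 22528301 to 22559280 on chromosome 20, minus strand, with 6122 bp of exon. FOXA2 (ENSG00000125798.9) spans 22561636 to 22566093 on the same strand with 2719 bp of exon. The lncRNA therefore begins 2355 bp past the 3′ end of FOXA2 and is transcribed in the same direction, unlike the other 5 members, which run opposite to their factor. Their nearest annotated transcript starts are 5930 bp apart. LINC00261 had about 17785 reads in library 1 and FOXA2 about 4939, taking the exon lengths annotated here. Whether transcription continuing past FOXA2 adds to the LINC00261 value was not tested.

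Other lncRNAs placed in the same way mostly lay below their coding neighbour. In 108 same-strand pairs the lncRNA began within 5 kb after the end of a detected coding gene and was itself at 0.5 RPKM or more. They are part of 401 such pairs with a detected coding gene. The rest, with a lncRNA under 0.5 RPKM in a library, were left out, so the median and share hold only above that cut. In the 108 pairs, LINC00261 with FOXA2 among them, the lncRNA was the higher gene in 13 (12.0%), and the median ratio was 0.19. The ratio exceeded that of LINC00261 in 6 of them. Where the coding gene belonged to a developmental transcription factor family, 5 pairs were left, and in 1 of these, LINC00261 with FOXA2, the lncRNA was the higher. No test was made, since the pairs come from 1 sample. The other FOXA genes, FOXA1 and FOXA3, stood at 39.7 and 36.4 RPKM. Within 100 kb of LINC00261 the table holds 4 other genes, of which FOXA2 was detected. The remaining 3 are lncRNAs, LNCNEF among them, and all were at the floor.

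GATA6-AS1 was the second highest member and its factor GATA6 was 4.13 times as high. GATA6, a zinc finger factor needed for endoderm and its derivatives, stood at 42.8 RPKM in library 1 and 42.5 in library 2. The ratio of lncRNA to factor was 0.245 in library 1 and 0.238 in library 2, with a counting interval of 0.229 to 0.255 (exact, 95%). GATA6-AS1 (ENSG00000266010.1) spans 19744847 to 19749839 on chromosome 18, minus strand. GATA6 (ENSG00000141448.4) spans 19749550 to 19782491 on the plus strand. In this annotation the genes are arranged head to head, share 290 bp at their starts and 94 bp of exon, and have transcript starts as close as 137 bp. The RefSeq start of GATA6-AS1, 910 bp from the gene start used here, lies outside GATA6. Of 8 other genes within 100 kb, GATA6 was detected and the rest, 4 lncRNAs and 3 small RNA genes, were not. Other GATA factors of endoderm were also high, GATA4 at 43.4 and GATA5 at 14.7 RPKM, while GATA1, a red cell factor, was at the floor.

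HNF4A-AS1 was low, while HNF4A was among the higher factors. HNF4A, a nuclear receptor that governs hepatocyte genes, stood at 44.5 RPKM in library 1 and 44.9 in library 2, which is 28.2 times the lncRNA level. The ratio of HNF4A-AS1 to HNF4A was 0.033 in library 1 and 0.0379 in library 2, with a counting interval of 0.0278 to 0.0446 (exact, 95%). HNF4A-AS1 (ENSG00000229005.1) spans 43001386 to 43024346 on chromosome 20, minus strand, and lies wholly inside HNF4A (ENSG00000101076.11, 42984339 to 43061485, plus strand). Its 5 exon blocks total 912 bp and share no base with an HNF4A exon. Its start is 40007 bp from the HNF4A gene start and 5533 bp from the nearest annotated HNF4A transcript start. The RPKM values stood for about 34 and 39 reads. The libraries differed by 15.1%, and counting alone gives an error of 16.6% for 1 library. Of 12 other genes within 100 kb, 4 were detected: HNF4A, TTPAL at 3.56, FITM2, a lipid droplet gene, at 1.44, and the pseudogene RPL37AP1 at 67.8 RPKM. The last is a copy of a ribosomal protein gene and may hold reads of its parent. Another of the 12, the lncRNA R3HDML-AS1, starts 514 bp from the HNF4A gene start on the opposite strand. It was at the floor and is named after its value was seen. HNF4G, the relative of HNF4A, stood at 2.33 RPKM.

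GATA2-AS1 came closest to its factor among the members below theirs. GATA2, a factor of blood and endothelium that is also present in trophoblast, stood at 3.23 RPKM in library 1 and 3.42 in library 2. The ratio of GATA2-AS1 to GATA2 was 0.717 in library 1 and 0.632 in library 2, with a counting interval of 0.591 to 0.766 (exact, 95%). Both values lie below 1, and the lncRNA was lower than the factor in each library. GATA2-AS1 (ENSG00000244300.2) spans 128208055 to 128221813 on chromosome 3, plus strand, and GATA2 (ENSG00000179348.7) 128198270 to 128212044, minus strand. They overlap by 3990 bp, with 78 bp of exon in common. The only other gene detected within 100 kb, of 6 in all, was EEFSEC, which carries selenocysteine to the ribosome, at 5.90 RPKM.

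GATA3-AS1 was at the floor beside a detected factor. GATA3, a factor of T cells and trophoblast, stood at 10.3 RPKM in both libraries and was at least 20.5-fold higher than GATA3-AS1, taking 0.5 RPKM as the limit for each library. GATA3-AS1 (ENSG00000197308.4, chromosome 10, 8092413 to 8095447, minus strand) lies inside the span of GATA3 (ENSG00000107485.11, 8087341 to 8117161, plus strand) and has a transcript start 120 bp from one of GATA3. At an exon length of 2372 bp, 0.5 RPKM stood for about 30 reads in library 1. A lower level of GATA3-AS1 was therefore not detectable in this table. Besides GATA3, TAF3, a subunit of the basal transcription factor TFIID, was detected within 100 kb at 3.87 RPKM. Thus GATA3-AS1 and GATA6-AS1 both start close to a factor at 10 RPKM or more, and GATA6-AS1 alone of these was detected.

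FENDRR and FOXF1 were both at the floor. FENDRR (ENSG00000268388.1) spans 86508135 to 86542705 on chromosome 16, minus strand, and FOXF1 (ENSG00000103241.5) 86544133 to 86549028, plus strand, with 1427 bp between them. At exon lengths of 6880 and 3520 bp, 0.5 RPKM stood for about 87 and 44 reads in library 1. No ratio is given, since neither gene has a level. The other forkhead genes of the cluster, FOXC2 and FOXL1, and the lncRNA FOXC2-AS1 were at the floor too, as was FOXF2, and 1 of 8 other genes within 100 kb was detected, MTHFSD at 2.53 RPKM.

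**Figure D3:**
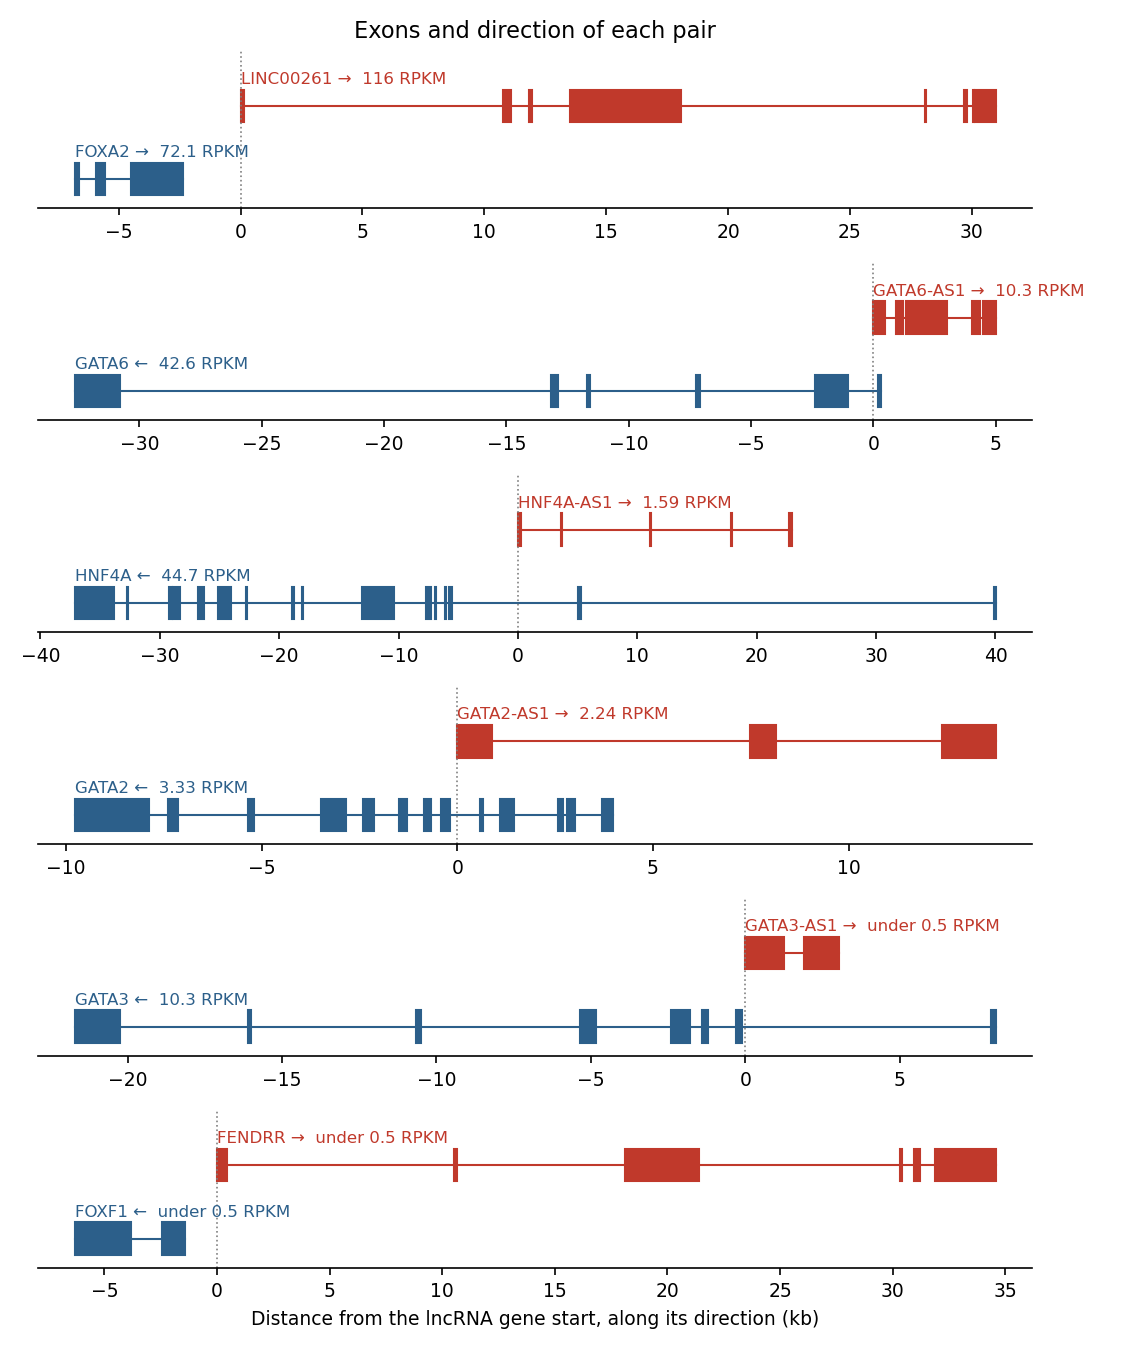
Exon blocks (boxes) and direction (arrows) of each lncRNA (red) and its factor gene (blue) against distance in kb from the lncRNA gene start, along the direction of the lncRNA, with mean RPKM. LINC00261 alone runs in the direction of its factor, and HNF4A-AS1 and GATA3-AS1 lie inside the span of theirs.

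Markers of cells known for the low or absent pairs were measured in the same libraries. Of 14 markers of lateral plate and septum transversum mesenchyme, 5 were detected and 9 were at the floor, with a summed level of 49.8 and 49.3 RPKM. FOXF1, FOXF2, HAND1, HAND2 and COL3A1 were among those at the floor. PDGFRA stood at 18.2, TBX20 at 10.1, ALCAM at 10.0, COL1A1 at 8.29 and PDGFRB at 2.14 RPKM. Of 13 trophoblast markers, 4 were detected and 9 were at the floor, with a summed level of 156 and 161 RPKM. Most of that sum was CGA, the common subunit of glycoprotein hormones, at 136 RPKM, followed by TEAD4 at 10.5, PGF at 9.41 and CDX2 at 2.12. TFAP2A, TFAP2C, GCM1, ELF5 and KRT7 were at the floor. For scale, genes at the floor share rank 12801 of all 19345 coding genes by mean level. The part of other cell types in the GATA2, GATA3 and GATA2-AS1 levels was not tested. Of 5 pluripotency markers, 4 were at the floor, and DPPA4 stood at 1.87 RPKM.

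The libraries were made with a strand mark, but whether the authors counted reads by strand is not stated by the labels. The table was therefore examined for antisense genes. In 97 lncRNAs with at least 50% of their exon bases under opposite-strand exons of a coding gene at 20 RPKM or more, the median ratio to that gene was 0.0277. Of these, 27 were at the floor and 48 had a mean of 1 RPKM or more. Among all 12046 lncRNA genes, 5.43% had at least 1 RPKM in each library, a stricter limit than the mean. The members are not among the 97: GATA6-AS1 shares 94 of 3288 exon bases with its factor, GATA2-AS1 78 of 2905, and HNF4A-AS1 and GATA3-AS1 none. Whether reads of the factor add to a lncRNA value was not tested.

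The ratios of the members were set beside those of other lncRNAs that start near a coding gene. In 2330 cases a lncRNA gene started within 5 kb of the start of a coding gene on the opposite strand, and 9.96% of these lncRNAs were detected. Where the coding gene was detected, 208 of 1640 were (12.7%), and where it was not, 24 of 690 (3.48%). In 368 pairs with a detected coding gene and the lncRNA at 0.5 RPKM or more, the median ratio of lncRNA to coding gene was 0.146, with quartiles of 0.0613 and 0.355. The lncRNA was the higher gene in 28 of them (7.61%). Pairs of the 1640 whose lncRNA was under 0.5 RPKM in a library were left out. The median, the share and the places given here therefore hold only above that cut. The ratio of GATA6-AS1 exceeded that of 234 of the 368 pairs and that of GATA2-AS1 exceeded 315, while 45 pairs lay below HNF4A-AS1. Levels of lncRNA and coding gene across these pairs had a Spearman rho of 0.131, given as a description across genes of the same libraries. GATA6-AS1 and GATA2-AS1 belong to this class. HNF4A-AS1 and GATA3-AS1, whose gene starts are further away, and LINC00261, on the same strand, do not.

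**Figure D4:**
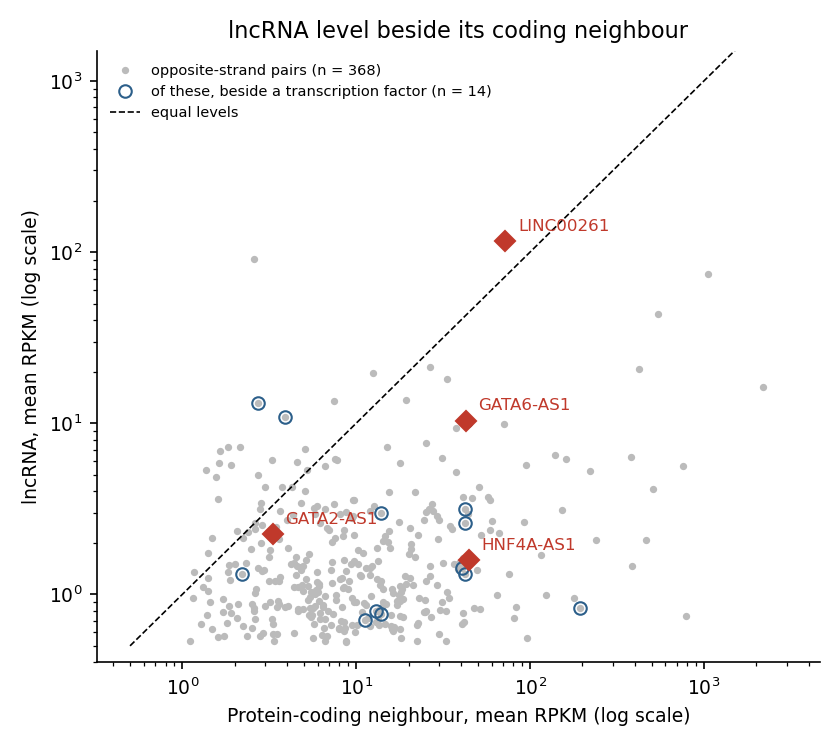
Mean RPKM of the lncRNA against that of its coding neighbour (both log axes) for 368 opposite-strand pairs (grey), those beside a transcription factor gene (blue circles, n = 14) and the 4 detected members (red diamonds). LINC00261 lies above the line of equal levels, at a ratio of 1.61, and the other members lie below it.

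The same was counted for developmental transcription factor genes alone. In 110 cases a lncRNA started within 5 kb of a factor gene on the opposite strand, at 97 factor genes in all, and 13 were detected (11.8%), while 88 were at the floor. That share lies near the 9.96% of lncRNAs beside any coding gene and above the 5.43% of all lncRNA genes, with no test made. GATA6-AS1 and GATA2-AS1 are among the 13, which lie at 11 factor genes. FENDRR is also in this class. GATA3-AS1 is not, since its gene start lies 8106 bp from that of GATA3. Placement by any annotated transcript start, chosen after seeing the data, does include it. That placement gave 11 of 50 lncRNAs detected beside a detected factor (22%) and 4 of 100 beside the others (4%). By gene starts, with a detected factor, 10 of 36 lncRNAs were detected (27.8%), and with a factor that was not detected, 3 of 74 (4.05%). The highest was FGD5-AS1 at 13.1 RPKM, which starts near NR2C2, a nuclear receptor gene at 2.72 RPKM, and stood above it by a ratio larger than that of LINC00261 to FOXA2. CEBPA-DT had 3.17 RPKM beside CEBPA at 42.3, a bZIP factor of hepatocytes. ENSG00000267727 and ENSG00000267130, also counted in the 10 of 36, start near CEBPA too. All exon bases of ENSG00000267727 lie under opposite-strand exons of CEBPA. FOXP4-AS1 had 1.42 RPKM beside FOXP4 at 40.8, and CRNDE 1.43 beside IRX5 at the floor. TBX3-AS1 was at the floor beside TBX3 at 34.3 RPKM, named after its value was seen. In this opposite-strand class, high factors thus had lncRNA neighbours from the floor to about 10 RPKM. LINC00261, on the same strand as FOXA2, is not in it.

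A list of 52 lncRNAs named for or known beside developmental factors, which holds the 6 members, was also read. Of the list, 46 were matched in the table, 9 were detected, beside 5.43% of all lncRNA genes, and 30 lay at the floor in each library. The list too was chosen with earlier results of these data known, so its share is not a test. The 9 include the 4 detected members already counted above. Others detected include CEBPA-DT, PAX8-AS1 at 1.90, FOXP4-AS1 and TBX2-AS1 at 1.36 RPKM. PROX1-AS1 had a mean of 0.559 RPKM, below the detection limit. EVX1-AS lay above the floor in each library, with a mean of 0.899 RPKM. HAND2-AS1, TBX5-AS1, WT1-AS, SIX3-AS1, DLX6-AS1 and NKX2-2-AS1 were among those at the floor.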

How the data were processed

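Messenger RNA was isolated from 2 µg of DNase-treated RNA per the labels' protocols, and strand-specific libraries were made with dUTP. The deposited table gives RPKM per gene and library, which the authors scaled to length and depth. The submitters' processing notes name hg19, FastQC 0.10.1, STAR 2.3.0e and Cufflinks 2.2.0, and the series description names Sailfish. Which tool and annotation release gave the RPKM values is not stated in those sources. No value lay between 0.1 and 0.5, so 0.1 is read as under 0.5.

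Identifiers were joined without version to GENCODE 44 on GRCh37 (hg19), and 54428 of 57158 matched. All 12 members and factors carry another version there, so the exon lengths behind the authors' RPKM may differ from those used here for read numbers. For the same reason the spans, overlaps and distances given may differ from those of the versions printed. Depth came from the spacing of values among single-exon genes, of which 80.8% and 81.0% were whole within 0.02 of a read. The comparison of libraries used genes whole within 0.02 per 100 reads and was tested on simulated data. PCR reads are not independent molecules, so intervals cover counting error only. With 1 sample there is no test. Python 3.11.15, pandas 2.3.3 and scipy 1.17.1 were used.

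The members, factors and lists were chosen with earlier results of these data known. Named genes are the 6 lncRNAs and factors, detected genes within 100 kb of a member, relatives of the factors, the detected lncRNAs of the list, and up to 10 of the highest lncRNAs near a factor gene. Some of these genes are not reported here, though counts include them. Alternatives were each library alone, pseudocounts, detection limits of 0.5 and 5 RPKM, and start windows of 1 and 10 kb.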

Additional observations from a re-analysis of the deposited data

How the results depend on the processing

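No paired analysis was possible because the series holds 1 group. Leaving out either library changed no detection call of a member; 4 of 6 were detected in each. Alone, the libraries gave ratios to the factor of 1.60 to 1.61 for LINC00261, 0.238 to 0.245 for GATA6-AS1, 0.033 to 0.0379 for HNF4A-AS1 and 0.632 to 0.717 for GATA2-AS1, and bounds of 0.0486 to 0.0487 for GATA3-AS1. With a pseudocount of 1 RPKM the ratio was 0.259 for GATA6-AS1, 0.0566 for HNF4A-AS1 and 0.749 for GATA2-AS1. A pseudocount raises a ratio below 1 by construction, and no lncRNA changed sides of its factor. A limit of 5 RPKM left 2 members, LINC00261 and GATA6-AS1. It left 3 of the 110 lncRNAs near a factor gene and 42 of the 2330 near any coding gene. A limit of 0.5 RPKM gave 411 of the 2330. With starts within 1 kb, 4 lncRNAs near a factor gene were detected, out of fewer pairs than within 5 kb, and the share was not computed. Each library alone gave 13 to 14 lncRNAs near a factor gene and 257 to 262 near any coding gene. Placement by any annotated transcript start and on the same strand was chosen after seeing the data. The former gave 15 of 150 near a factor gene and 310 of 3687 near any coding gene, and the latter 81 of 568. The cut of the deposited values at 0.5 RPKM limits what can be said of GATA3-AS1, FENDRR and FOXF1, and HNF4A-AS1 rests on few reads.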
